A study of Mus musculus with 12 samples.

Results

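Keratins and other genes that mark epithelial or mesenchymal identity were followed through 12 TC2Ras tumors by RNA-seq. The set holds 10 of the 55401 genes in the deposited count table: the simple-epithelium keratins Krt8, Krt18, Krt19 and Krt7, the basal keratins Krt5 and Krt14, the adhesion molecule Epcam, the cadherins Cdh1 and Cdh2, and the intermediate filament gene Vim. It was chosen by the measured counts of Krt8, which were lower in tumors with both ASC and iAs than in Control tumors, so that Krt8 is described here without a test, and the contrast of ASC_As300 with Control is described without a test for each of the 10 genes. TC2Ras is a mouse prostate cancer line driven by Ras. ASC are adipose-derived mesenchymal/stromal cells, here a GFP-marked primary culture mixed into the tumor cells before implantation, and iAs is inorganic arsenic.

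Each of the 4 groups had 3 tumors, collected on day 21 after 125000 TC2Ras cells were placed under the skin of both flanks. Control tumors grew from TC2Ras cells alone in mice that drank water with 0 ppb iAs, and ASC tumors from TC2Ras cells with 1% ASC-GFP cells in such mice. As300 tumors grew from TC2Ras cells alone in mice that drank 300 ppb iAs, and ASC_As300 tumors combined the 1% ASC-GFP cells with 300 ppb iAs. In all groups the mice had low-arsenic AIN-76A chow and Milli-Q water for 2 weeks beforehand, and the tumors of both flanks of a mouse were pooled. The strain and age of the host mice are not given in the sources used here. The tumors come from 1 cell line, and the labels name the cell type as adipose-derived stromal cells although whole tumors were sequenced, so host stroma, blood cells and skin-side tissue can contribute RNA.

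Keratins are the intermediate filaments of epithelial cells and assemble as pairs of a type I and a type II chain. Krt8 (type II) pairs with Krt18 (type I) in simple and glandular epithelia, including the luminal cells of the prostate, whereas Krt5 and Krt14 form the pair of basal cells and of the basal epidermis. Krt7 and Krt19 are further keratins of simple and ductal epithelia. Epithelial cells hold together through E-cadherin (Cdh1) and carry EpCAM, while mesenchymal cells and cells that have passed through an epithelial-mesenchymal transition (EMT) use vimentin (Vim) filaments and often N-cadherin (Cdh2).

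The total count per tumor lay between 39157647 and 55168642. Control replicate 1 stood apart from the other 11 tumors on the first principal component, which held 17.3% of the variance, and it also carried more RNA of Ms4a1, a surface protein of B lymphocytes, which had 1353 counts there and at most 56 in any other tumor. Values against Control are therefore also given without this tumor for the genes tested in the set. CPM are counts scaled to the size of each library with edgeR's TMM factors, and RPKM divide CPM by the length of the gene's exons in kilobases, the scale used here to compare levels between genes. Low counts gathered at multiples of 4, so 12 counts were taken as the floor of detection, and no fold change is given where all tumors of a group lay at or under it. A gene was called where edgeR's quasi-likelihood test gave a Benjamini-Hochberg adjusted p-value under 0.05 over the 20818 genes tested and the change was at least 1.5-fold. Of the 10 genes, 9 passed the filter on low counts, 6 had more than 12 counts in every tumor, and Krt7 was not tested.

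Vim was by far the most abundant of the 10 genes. Its level averaged 599 RPKM over the 12 tumors, beside 41.4 RPKM for Krt8, 4.71 for Cdh2, 1.64 for Krt18 and 1.02 for Krt19. Lower still were Cdh1 at 0.318 RPKM, Krt14 at 0.314, Epcam at 0.205, Krt5 at 0.199 and Krt7 at 0.00603. The tumors thus held far more vimentin RNA than RNA of any keratin, with Krt8 the main keratin and little RNA of the epithelial adhesion molecules. In bulk tumors, fewer cells of a type and less RNA per cell cannot be told apart.

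**Figure D1:**
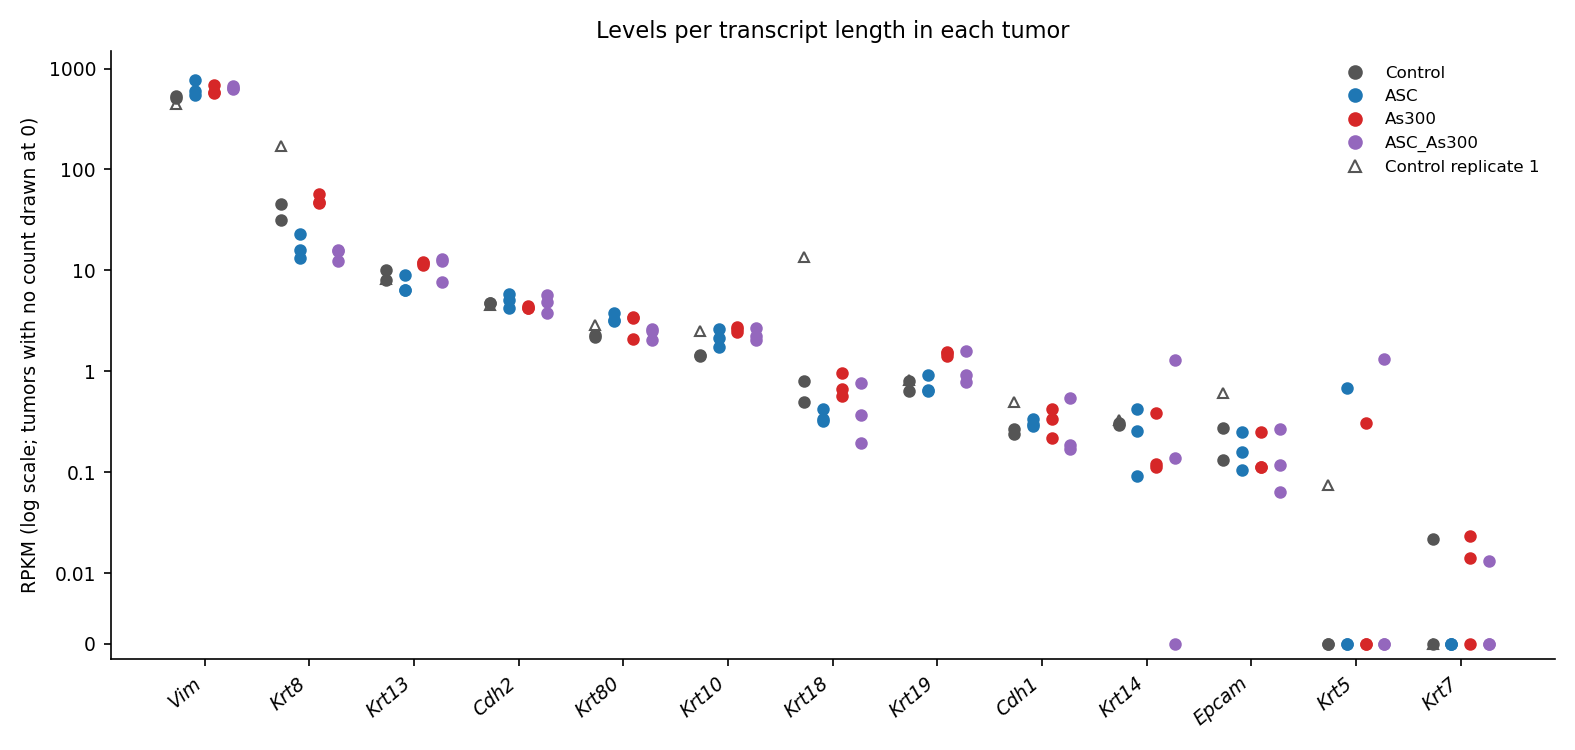
RPKM (log scale, with tumors that have no count drawn at 0) of the 10 genes and of the keratins Krt13, Krt80 and Krt10 in each of the 12 tumors, colored by group, with Control replicate 1 as an open triangle. Vim stands at the top near 599 RPKM on average, Krt8 is the highest keratin with its ASC and ASC_As300 tumors below its Control and As300 tumors, and Krt5 and Krt7 have no count in most tumors.

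The genes of the Krt8 and Krt18 pair lie next to each other on chromosome 15, with 23697 bases between their GENCODE models (GRCm38), Krt8 at chr15:101996698-102004482 on the minus strand and Krt18 at chr15:102028180-102032027 on the plus strand. Their promoters are shown because the 2 chains are partners and their levels differ so widely in these tumors. Each is the RefSeq window of GRCm38.p6 from 250 bases before to 50 after the annotated start, chr15:102004293-102004592 for Krt8 and chr15:102027966-102028265 for Krt18, 5′ to 3′ on the strand of the gene. Capitals mark matches, on either strand, to the TATA box TATAAA and to the E-box CACCTG, a sequence bound by the Snail and ZEB families of EMT repressors.
Krt8: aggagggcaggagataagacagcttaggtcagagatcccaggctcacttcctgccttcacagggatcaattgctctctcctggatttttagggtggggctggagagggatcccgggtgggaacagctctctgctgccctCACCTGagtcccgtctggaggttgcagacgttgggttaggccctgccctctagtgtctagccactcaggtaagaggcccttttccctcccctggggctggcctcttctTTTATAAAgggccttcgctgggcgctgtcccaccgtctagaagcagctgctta
Krt18: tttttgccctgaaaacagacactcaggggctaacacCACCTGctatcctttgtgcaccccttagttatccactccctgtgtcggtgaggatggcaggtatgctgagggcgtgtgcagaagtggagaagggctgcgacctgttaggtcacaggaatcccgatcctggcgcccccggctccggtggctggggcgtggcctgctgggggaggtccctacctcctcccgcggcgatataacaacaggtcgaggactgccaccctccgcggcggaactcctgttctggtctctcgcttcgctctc
The Krt8 window held TATAAA on both strands, as overlapping matches that begin at positions -3 and -1 and run across the RefSeq start, and 1 CACCTG at -111. The Krt18 window held no TATAAA and 1 CACCTG at -214. The GENCODE models of both genes begin inside these windows but upstream of the RefSeq starts, so the positions hold for the RefSeq starts only. The matches are to letters, and their use as sites was not tested. Of all 32851 mouse promoter windows of this length, 13.6% held TATAAA and 20.2% held CACCTG. Neither window held the GC box GGGCGG (in 35.7% of windows), the AP-1 site TGANTCA (7.81%) or the GAS element TTCNNNGAA (8.3%). RefSeq windows were found for 7 of the 10 genes, and those of Krt19, Cdh1 and Cdh2 were not used here.

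Krt8 had 16302, 3238 and 4144 counts in Control replicates 1 to 3 and 3650, 5523 and 5230 in the As300 tumors. In the ASC tumors it had 1294, 1152 and 1921 counts, and in the ASC_As300 tumors 1671, 1557 and 1216. Every tumor with ASC was below every tumor without ASC, whether or not iAs was given, and Control replicate 1 was far above all others. The group means were 163 ± 151 CPM in Control, 98.9 ± 12.2 in As300, 33.9 ± 9.66 in ASC and 28.6 ± 3.97 in ASC_As300 (SD, n = 3). In this order Control and As300 overlapped, As300 and ASC did not, and ASC and ASC_As300 overlapped. Without Control replicate 1 the Control mean was 76.0 CPM, below the As300 mean.

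As a fitted log2 fold change, Krt8 in ASC_As300 against Control, the contrast that chose it, was -2.51, and -1.40 without Control replicate 1. Against Control it was -2.26 in ASC, and -1.15 without that tumor. In ASC_As300 against As300 it was -1.79. For As300 against Control it was -0.72 with all tumors and 0.40 without Control replicate 1, so its sign rested on that tumor. Adding iAs to ASC came with a log2 difference of -0.25, which ran from -0.41 to 0.0088 when single tumors were left out. Of all genes tested in ASC_As300 against Control, 0.807% were called, 0.783% upward and 0.0240% downward, and 12.2% had all ASC_As300 tumors below all Control tumors.

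Reads of Krt8 can be shared with close copies and with overlapping genes. The processed pseudogene Krt8-ps had between 10 and 116 counts, or 0.521% to 3.02% of the Krt8 count of the same tumor. The long noncoding RNA gene Gm36026 overlaps Krt8 on the opposite strand and had between 8 and 63 counts. Both are small beside the Krt8 count in every tumor.

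**Figure D2:**
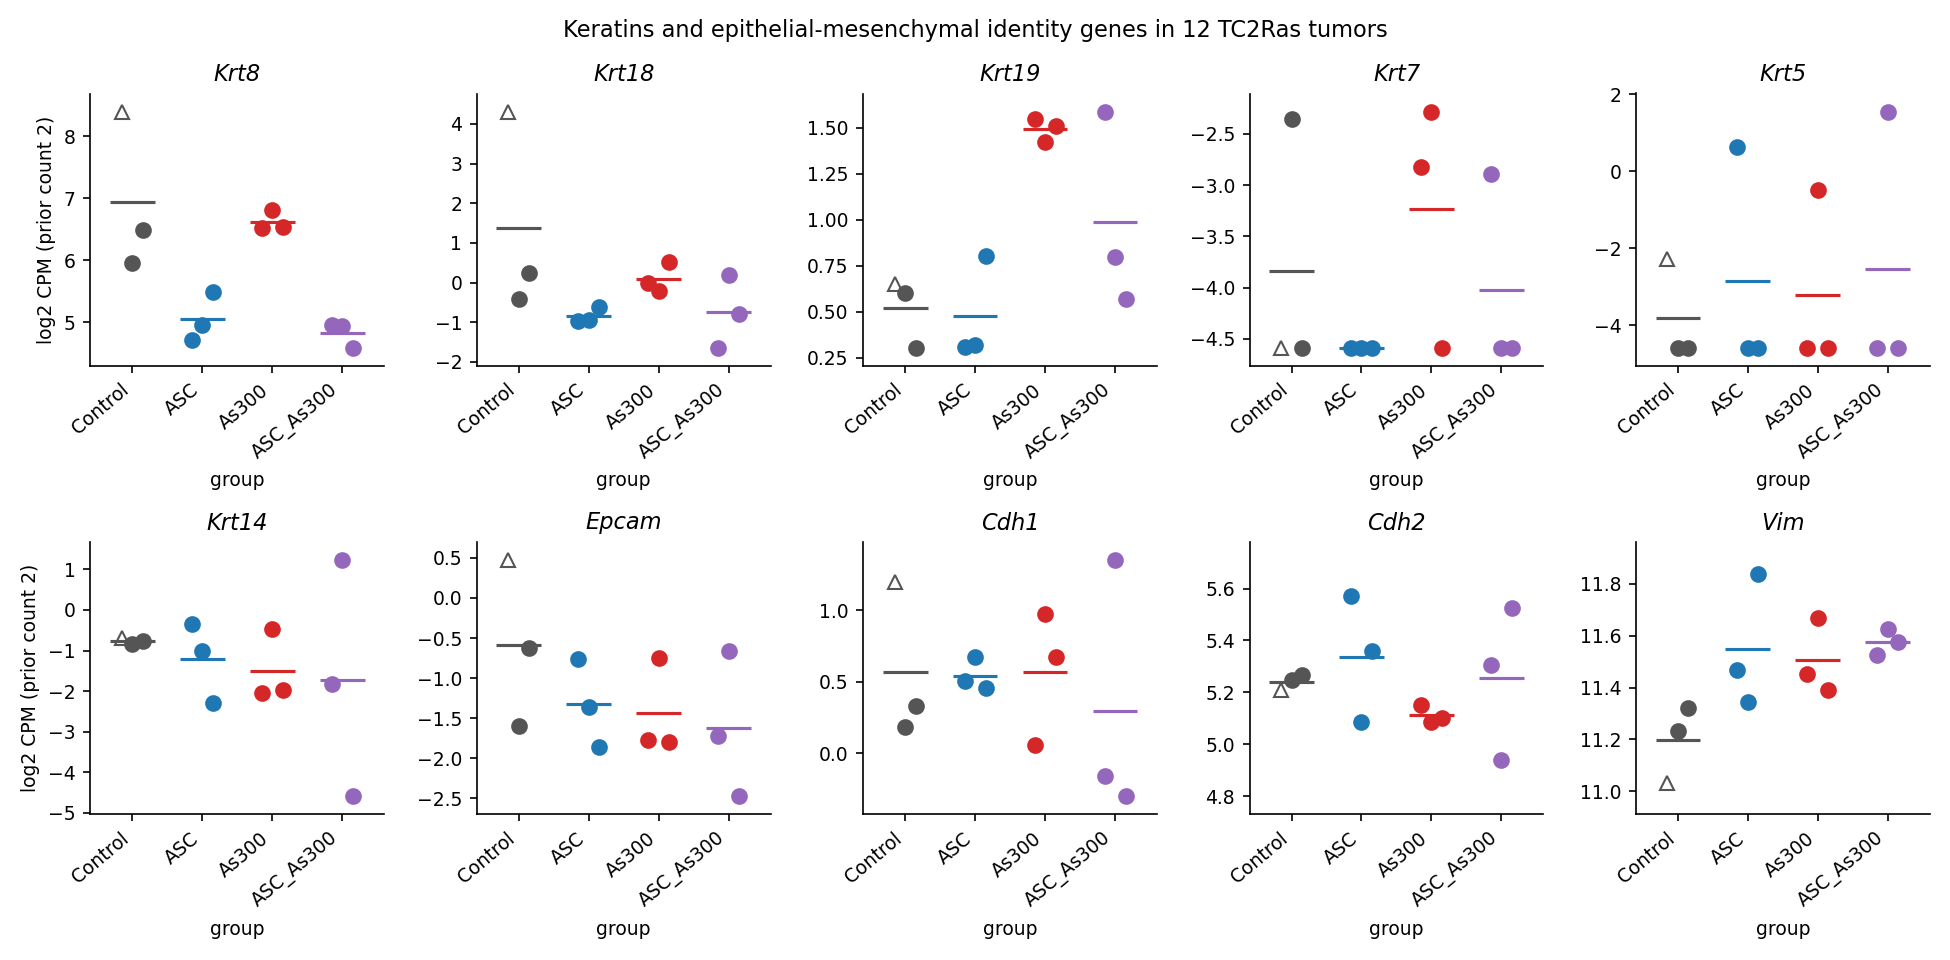
Log2 CPM with a prior count of 2 of the 10 genes in each tumor (3 points per group, bar at the group mean, Control replicate 1 as an open triangle), with a y axis of its own for each gene. All 6 tumors with ASC lie below all 6 without ASC for Krt8, all treated tumors lie above the Control tumors for Vim, and Krt18 is set apart mainly by Control replicate 1.

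Krt18, the partner of Krt8, had 954, 37 and 53 counts in the Control tumors, 23, 18 and 26 in ASC, 38, 40 and 79 in As300, and 15, 56 and 27 in ASC_As300. In CPM the ASC tumors were below all Control and all As300 tumors, and the other pairs of groups overlapped. In ASC against Control its log2 fold change was -3.79 (SE 1.05) with an edgeR adjusted p of 0.137, and in As300 against Control -2.76 (SE 0.99) with an adjusted p of 0.115. Both values rested on Control replicate 1, and without it they were -0.83 and 0.20. The interaction of ASC and iAs, which compares the iAs difference with ASC to that without, was 3.07 (SE 1.39, adjusted p = 0.362), and 0.10 without that tumor. In ASC_As300 it was -0.72 (SE 0.97) against As300, with an adjusted p of 0.853.

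Krt8 and Krt18 were not present in equal amounts. The Krt8 level was 12.5 times that of Krt18 per exon length in Control replicate 1 and between 20.4 and 101 times in the other 11 tumors. Across the 12 tumors the log2 CPM of Krt18 had a Pearson correlation of 0.84 with that of Krt8, and 0.68 over the 11 tumors without Control replicate 1, where Krt18 had only 15 to 79 counts and the 2 values of a point come from 1 library. The same value was 0.57 for Epcam and 0.41 for Cdh1 with all tumors, and 0.19 and 0.16 without Control replicate 1. For Vim it was -0.54 and -0.18.

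Krt19 had its highest mean in As300. It had 74, 77 and 55 counts in Control and 115, 129 and 159 in As300, and 59, 45 and 73 in ASC against 159, 86 and 73 in ASC_As300. Every As300 tumor was above every Control tumor, while the ASC_As300 tumors overlapped with those of ASC. In CPM the As300 mean was 2.77 ± 0.12 against 1.40 ± 0.18 in Control (SD, n = 3). The log2 fold change of 0.98 (SE 0.31, 95% interval 0.37 to 1.60) had an edgeR adjusted p of 0.0859 and was not called, while the Wald test of DESeq2 gave 1.01 and an adjusted p of 0.0247. Without Control replicate 1 the edgeR value was 1.07 (adjusted p = 0.124), and in ASC against Control it was 0.042 (adjusted p = 0.979). In ASC_As300 against ASC it was 0.57 (SE 0.31) with an adjusted p of 1, and the interaction was -0.41 (SE 0.44, adjusted p = 0.729).

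Krt7 was at the floor. It had 8 counts in Control replicate 2, 4 and 8 in As300 replicates 1 and 2, 5 in ASC_As300 replicate 1 and 0 in the other 8 tumors. No difference in Krt7 could be detected at this depth.

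Krt8 made up less of the keratin RNA in the groups with ASC. Of the 54 keratin genes in the table, 30 had at most 12 counts in every tumor. Its share was 64.4% to 85.1% of the summed keratin RPKM in Control and 66.4% to 71.3% in As300, but 43.3% to 55.7% in ASC and 38.0% to 43.3% in ASC_As300, so that the groups with ASC did not overlap with those without. The other 53 keratins together summed to 30.0 RPKM in Control replicate 1 and to between 15.2 and 23.6 in the other tumors. Type II keratins exceeded type I keratins 2.32 to 6.60 times in Control, 2.59 to 3.24 times in As300 and 1.53 to 1.97 times in ASC, and the ratio was 0.806 to 1.38 in ASC_As300. These shares and ratios contain Krt8 itself, so they describe the same difference again.

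After Krt8 the most abundant keratins were not luminal ones. Krt13, a type I keratin of stratified mucosa, averaged 9.68 RPKM and had 671 to 968 counts in Control. Krt80, a type II keratin found widely in epithelia, averaged 2.80 RPKM, and Krt10, a keratin of the upper epidermis, 2.22 RPKM. Krt13 had a log2 fold change of -0.27 (SE 0.20, edgeR adjusted p = 0.567) in ASC and of 0.42 (SE 0.20, adjusted p = 0.225) in As300 against Control. Krt80 had values of 0.46 (SE 0.19, adjusted p = 0.283) and 0.27 (SE 0.19, adjusted p = 0.428). Among 12 other epithelial keratins, 6 were tested, and over the 5 tested comparisons together edgeR called 0, with 5 values at an unadjusted p under 0.05 and 0 called by DESeq2.

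The basal keratins Krt5 and Krt14 were nearly absent, and single tumors carried them. Krt5 had 75 counts in ASC replicate 1, 33 in As300 replicate 2 and 146 in ASC_As300 replicate 2, 8 in Control replicate 1, and 0 in the other 8 tumors. Krt14 had 28, 27 and 25 counts in Control, 37, 17 and 7 in ASC, 8, 33 and 12 in As300, and 13, 116 and 0 in ASC_As300, so its highest tumor was also the highest for Krt5. No group stood apart for either gene. In ASC_As300 against ASC, Krt14 had a log2 fold change of 0.88 (SE 1.15, edgeR adjusted p = 1), which was -1.89 without ASC_As300 replicate 2. Against Control, and without Control replicate 1, it was -0.21 in ASC and -0.53 in As300. Krt5 had a value of 0.90 (SE 2.15, adjusted p = 1) in ASC_As300 against ASC.

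Of the 4 tumors with Krt5 counts, ASC replicate 1 and ASC_As300 replicate 2 also carried RNA of some epidermal genes. Krt1, a keratin of the upper epidermal layers, had 37 counts in ASC replicate 1 and 59 in ASC_As300 replicate 2, and at most 4 elsewhere. Dsp, which encodes desmoplakin, had 51 counts in each of these 2 tumors and at most 8 elsewhere, and Krt6a had 0 in ASC replicate 1, 15 in As300 replicate 2 and 34 in ASC_As300 replicate 2. As300 replicate 2, with 33 counts of Krt5, had 0 of Krt1 and 8 of Dsp. Other epidermal genes were not highest in the same tumors: Lor had 29 and 30 counts in ASC replicate 1 and ASC_As300 replicate 2 and up to 75 elsewhere, and Lgals7 had 22 and 58 and up to 133 elsewhere. The 14 genes of the epidermal keratinocyte list, 3 of them at the floor in every tumor, summed to 9.56 to 16.7 CPM in the Control tumors, 13.8 to 15.3 in the ASC tumors, 13.7 to 16.3 with As300 alone and 12.5 to 17.4 with both. The part of skin in the Krt5 and Krt14 values was not tested.

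Epcam had 65, 15 and 28 counts in Control, 27, 13 and 10 in ASC, 10, 27 and 14 in As300, and 14, 30 and 7 in ASC_As300. The groups overlapped, with Control replicate 1 the highest tumor. The log2 fold change was -0.98 (SE 0.71, edgeR adjusted p = 0.552) in ASC and -1.09 (SE 0.71, adjusted p = 0.386) in As300 against Control, and leaving out Control replicate 1 brought these to -0.24 and -0.33. The 95% interval in ASC reached from -2.36 to 0.41, so no difference in Epcam was detectable at this depth.

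Cdh1 had 109, 57 and 56 counts in Control, 68, 58 and 57 in ASC, 40, 94 and 88 in As300, and 46, 127 and 39 in ASC_As300. The group means were 1.52 ± 0.64 CPM in Control, 1.42 ± 0.12 in ASC, 1.49 ± 0.46 in As300 and 1.38 ± 0.98 in ASC_As300 (SD, n = 3), closer to each other than the tumors of a group. Its log2 fold change against Control was -0.10 (SE 0.47, 95% interval -1.03 to 0.83) in ASC and -0.02 (SE 0.47, interval -0.95 to 0.90) in As300, with edgeR adjusted p-values of 0.95 and 0.986. Without Control replicate 1 the values turned to 0.31 and 0.39 (adjusted p = 0.836 and 0.736). The highest Cdh1 counts were in ASC_As300 replicate 2 and in Control replicate 1.

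Cdh2 was measured far more precisely than Cdh1, at 37.8 ± 0.729 CPM in Control, 40.8 ± 6.81 in ASC, 34.5 ± 0.823 in As300 and 38.7 ± 7.72 in ASC_As300 (SD, n = 3). The 3 As300 tumors, at 35.5, 33.9 and 34.3 CPM, were below the Control tumors at 37.0, 38.0 and 38.4 CPM, but by a small margin. The log2 fold change there was -0.13 (SE 0.14, 95% interval -0.41 to 0.15, edgeR adjusted p = 0.64). In ASC against Control it was 0.11 (SE 0.14, interval -0.17 to 0.39, adjusted p = 0.768). Without Control replicate 1 these were -0.13 and 0.10. Per exon length Cdh2 stood at 4.71 RPKM on average and Cdh1 at 0.318 RPKM.

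Vim was lowest in the Control tumors, with 2095.3, 2409 and 2560.4 CPM. It reached 2829.1, 2602.4 and 3662.7 CPM in ASC, 2805.2, 3256.8 and 2684.5 in As300, and 2947.5, 3159.8 and 3053.6 in ASC_As300. All 9 treated tumors were above all 3 Control tumors. The log2 fold change was 0.36 (SE 0.13, 95% interval 0.11 to 0.62) in ASC and 0.31 (SE 0.13, interval 0.05 to 0.56) in As300 against Control, with edgeR adjusted p-values of 0.212 and 0.169, and neither passed the test. Without Control replicate 1 they were 0.30 and 0.25. In ASC_As300 against Control, given without a test, it was 0.37. Between treated groups the value was 0.01 (SE 0.13, adjusted p = 1) in ASC_As300 against ASC and 0.07 (SE 0.13, adjusted p = 0.91) in ASC_As300 against As300.

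None of the 8 tested genes other than Krt8 was called by edgeR in ASC or in As300 against Control, where 0.721% (0.706% up, 0.0144% down) and 1.06% (0.701% up, 0.355% down) of all genes were called. The unadjusted p-value was under 0.05 for 2 of them in ASC (Krt18, Vim) and 3 in As300 (Krt18, Krt19, Vim), and DESeq2 called 0 and 1 (Krt19). DESeq2 gave no adjusted p-value, and so no call, to 19797 of 33928 genes in ASC and 17844 in As300 against Control. These were 2754 genes in ASC_As300 against ASC, 11984 against As300 and 17193 for the interaction. The absence of a DESeq2 call is no test of a gene without an adjusted p-value. Of the same 8, none was called in ASC_As300 against ASC (0% of all genes, with 11 called by DESeq2) or against As300 (0.855%, of which 0.793% up and 0.0624% down), with 0 at an unadjusted p under 0.05 and 0 by DESeq2 in both. The interaction called 0 (0% of all genes, with 174 called by DESeq2) with 1 at an unadjusted p under 0.05 (Krt18) and 0 by DESeq2. Their median log2 fold change, leaving out Krt5 because Control was at the floor for it, was -0.10 in ASC and -0.13 in As300 against Control. Over all genes tested it was -0.0044 and -0.028.

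Groups did not overlap for 2 of the 8 genes in ASC against Control (Vim higher, Krt18 lower), where 19.0% of all genes did not overlap (9.94% higher, 9.01% lower), and for 3 of 8 in As300 against Control (Krt19 and Vim higher, Cdh2 lower), where it was 29.9% (14.5% higher, 15.4% lower). In ASC_As300 against ASC and against As300 it was 0 of 8, beside 8.07% (4.17% higher, 3.91% lower) and 19.7% (11.3% higher, 8.37% lower) of all genes. In ASC_As300 against Control it was 1 of 8 (Vim higher), beside 25.6% (13.5% higher). These counts are near the shares over all genes. The comparisons with Control share the same 3 Control tumors.

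**Figure D3:**
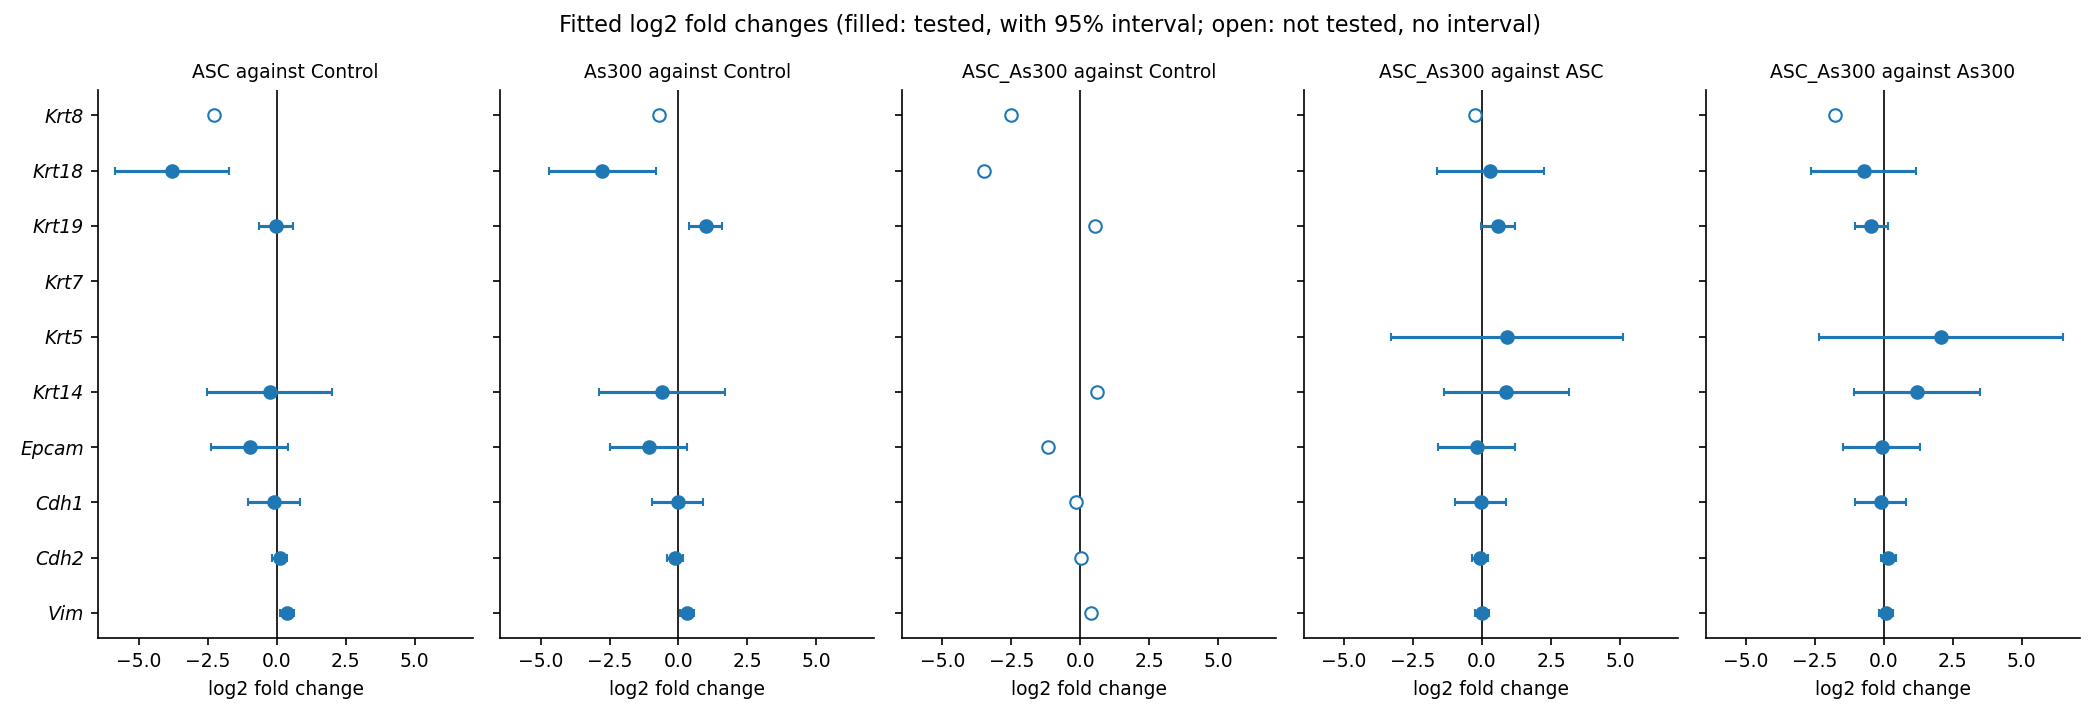
Fitted log2 fold change of the 10 genes in 5 comparisons, with 95% intervals where a test was made (filled) and without intervals where none was (open). No symbol is drawn for Krt7 or where a group was at the floor. The intervals of Cdh2 and Vim are narrow, those of Krt5, Krt14 and Krt18 span several units, and the Krt18 values against Control rest on Control replicate 1.

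Some other epithelial genes were also highest in Control replicate 1. Among genes with more than 12 counts in at least 1 tumor, this tumor was the highest for 6 of 29 epithelial junction and surface genes and for 2 of 8 epithelial transcription and splicing regulators, beside 12.3% of all 22517 such genes. Dsg2, a desmosomal cadherin, had 73 counts there and at most 8 in any other tumor, and Ehf, an ETS factor of epithelia, had 67 against at most 11. Perp, a desmosomal membrane protein, had 368 counts against at most 236. Of the other epithelial keratins, 0 of 10 were highest in it. Of the 8 leukocyte genes, 4 were highest in it, and these summed to 259 to 519 CPM in the Control tumors, 308 to 471 in the ASC tumors, 296 to 355 with As300 alone and 361 to 464 with both. The part of the lymphocytes or of other tissue in the Krt8 and Krt18 counts of this tumor was not tested.

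Adipocyte genes varied between tumors, and their part in the Krt8 values was not tested. Adiponectin (Adipoq) and the other 5 adipocyte genes summed to 76.2 to 208 CPM in the Control tumors, 8.46 to 446 in the ASC tumors, 10.3 to 33.6 with As300 alone and 1.66 to 22.8 with both. The highest sum was that of ASC replicate 2.

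**Figure D4:**
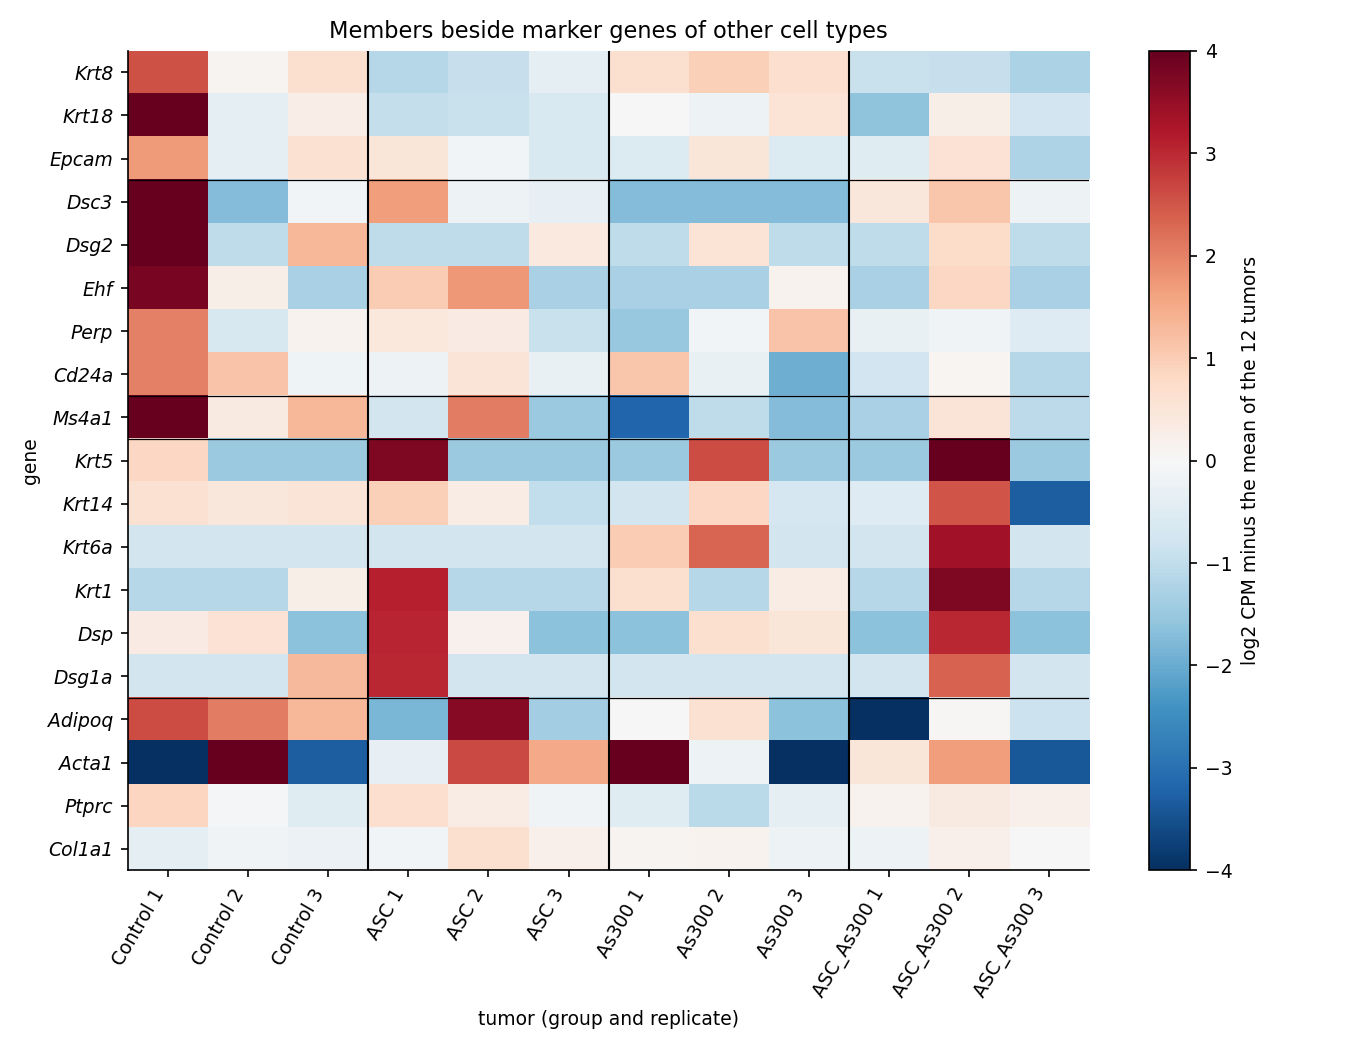
Log2 CPM minus the mean of the 12 tumors (color, limited to 4 either way) for Krt8, Krt18 and Epcam, for epithelial, B lymphocyte, epidermal, adipocyte, muscle, leukocyte and fibroblast genes, in each tumor. Control replicate 1 is high for Krt8, Krt18 and Epcam as well as for Dsg2, Ehf and Ms4a1, while Krt5, Krt1 and Dsp are high together in ASC replicate 1 and ASC_As300 replicate 2. The marker genes drawn are a choice, and Dsg2, Ehf, Perp, Ms4a1, Krt1, Krt6a and Dsp were picked after their values were seen. Among genes above the floor, Control replicate 1 was highest for 6 of 29 epithelial junction and surface genes and 0 of 10 other epithelial keratins, beside 12.3% of all genes. Lor and Lgals7, not drawn, were not highest in ASC replicate 1 or ASC_As300 replicate 2.

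The regulators of both identities were unequally present. Twist1 and Prrx1, transcription factors of mesenchyme and EMT, averaged 24.0 and 16.0 RPKM, and 10 EMT transcription factors had a median of 4.99 RPKM, with 1 at the floor in every tumor. The 12 epithelial regulators had a median of 0.046 RPKM, with 4 at the floor, and the highest were Klf5, a zinc-finger factor of epithelial and progenitor cells, at 6.03 RPKM and the splicing regulator Esrp2 at 0.292 RPKM. Over the 5 tested comparisons together, edgeR called 0 of the 9 tested EMT factors and 0 of the 7 tested epithelial regulators. The unadjusted p was under 0.05 for 10 values of the EMT factors, 6 of them in As300 against Control (where it was so for 24.1% of all genes), and for 2 of the epithelial regulators, and DESeq2 called 1 (Twist2 in As300 against Control) and 0. Twist1 had a log2 fold change of 0.29 (SE 0.09, adjusted p = 0.0887) in As300 against Control, and Klf5 of -0.34 (SE 0.16, adjusted p = 0.318) in ASC against Control.

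**Figure D5:**
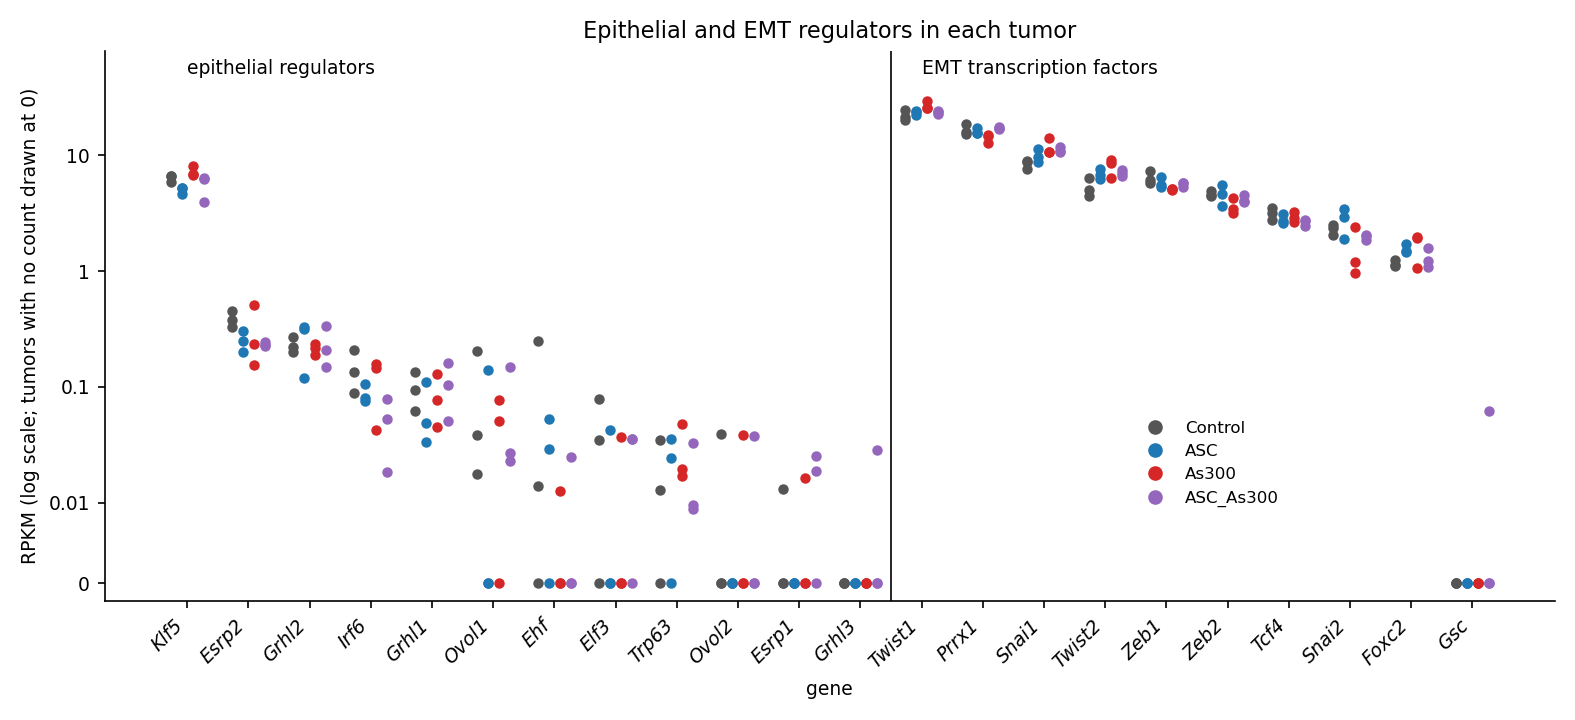
RPKM (log scale, with tumors that have no count drawn at 0) of 12 epithelial regulators and 10 EMT transcription factors in each tumor, colored by group. Apart from Klf5, the epithelial regulators lie under 1 RPKM, whereas the EMT factors other than Gsc lie near or above 1 RPKM in all groups.

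Around these genes, 7 lists of 103 further identity genes were examined, of which 77 were tested. In As300 against Control 1 was called upward by edgeR (0.701% of all genes), with 14 at an unadjusted p under 0.05 and 3 called by DESeq2 (Lsr, Syp, Twist2). In ASC_As300 against As300 1 was called downward (0.0624% of all genes), with 11 and 3 (Syp, Mmp9, St14). The other 3 tested comparisons called 0, with 18 genes at an unadjusted p under 0.05 and 2 called by DESeq2 in ASC against Control, 6 and 0 in ASC_As300 against ASC, and 10 and 1 for the interaction. Over all genes the unadjusted p was under 0.05 for 15.4% in ASC and 24.1% in As300 against Control, 3.21% in ASC_As300 against ASC, 9.98% against As300 and 13.6% for the interaction. The median log2 fold change of the identity genes, leaving out those with a group at the floor, was -0.05 in ASC and -0.09 in As300 against Control. Over all genes tested it was -0.0044 and -0.028. The catenins Ctnnb1 and Ctnna1, which link cadherins to actin, were abundant at 135 and 44.0 RPKM, with log2 fold changes of -0.18 (SE 0.08, edgeR adjusted p = 0.324) and -0.07 (SE 0.07, adjusted p = 0.701) in ASC. Among the other intermediate filaments, the lamin gene Lmna averaged 146 RPKM and nestin (Nes) 46.1 RPKM. Lmna had log2 fold changes of 0.30 (SE 0.12, adjusted p = 0.24) in ASC and 0.40 (SE 0.12, adjusted p = 0.0676) in As300 against Control.

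The gene called upward in As300 was Syp, which encodes the synaptic vesicle protein synaptophysin, found in neurons and in neuroendocrine cells. It had 143, 227 and 213 counts in Control and 485, 522 and 720 in As300, a log2 fold change of 1.57 (SE 0.26, adjusted p = 0.0401). The call was kept in 4 of 12 fits that each left out a tumor, with adjusted p-values from 1.08e-06 to 0.186 across the alternatives. Without Control replicate 1 the value was 1.42 (adjusted p = 0.066). The 7 genes of the neuron list were also higher in As300 than in Control without overlap, beside 14.5% of all genes, with a median log2 fold change of 1.87, and 2 of them (Syn2, Stmn2) were called. The part of nerve tissue in the Syp values was not tested. The gene called downward in ASC_As300 against As300 was Mmp9, a matrix metalloproteinase of leukocytes and stroma. It had 553, 572 and 468 counts in ASC_As300 and 920, 1043 and 2506 in As300, a log2 fold change of -1.52 (SE 0.29, adjusted p = 0.0293), kept in 8 of 12 such fits with adjusted p-values between 4.18e-06 and 0.164. Mmp9 was also lower without overlap in ASC (533, 410 and 490 counts) than in Control (1115, 705 and 1349), beside 9.01% of all genes. There DESeq2 called Mmp9 and edgeR did not. Neither Syp nor Mmp9 is a keratin or a junction gene.

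Prostate identity could be checked only in part. Of 16 prostate epithelial genes, 6 had at most 12 counts in every tumor. Psca was among them. Probasin (Pbsn), an androgen-driven gene of the mouse prostate, had 0 counts in every tumor, and the luminal factors Hoxb13 and Foxa1 had at most 4 and 12 counts. Col1a1, a collagen gene of fibroblasts and other stromal cells, had 68690 to 87552 counts in Control and 84805 to 107351 in ASC, so it was abundant also in tumors without implanted ASC and does not mark those cells.

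The genes whose log2 CPM followed Krt8 most closely over all 12 tumors were Gpr183 (Pearson r = 0.89), a receptor that guides B cells and other leukocytes, Flt4 (0.88), the receptor tyrosine kinase of lymphatic endothelium, Gpn1 (0.87), Hnrnph3 (0.86) and 9530026P05Rik (0.85). Gpr183 had 9.92 CPM in Control replicate 1, the tumor with the highest Krt8, and 8.10 and 6.12 in Control replicates 2 and 3. It had 5.73, 6.56 and 5.81 CPM in As300, 2.89, 3.46 and 4.73 in ASC, and 3.03, 4.52 and 2.77 in ASC_As300. Over the 11 tumors without it the closest were Chd5 (0.93), a chromatin remodeler, Sybu (0.91), Cacnb1 (0.91), Prtg (0.91) and Map3k20 (0.90), none of which was in the first list. Cacnb1, a calcium channel subunit, had 14.1 to 15.6 CPM in As300 and 7.57 to 8.31 in ASC. These are descriptions over few tumors that share group and depth.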

How the data were processed

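Poly(A) RNA of 12 tumors was sequenced with stranded libraries and paired ends. According to the labels and the study's methods, the authors trimmed reads with cutadapt 1.1.0, aligned them with HISAT2 2.0 and quantified with StringTie 1.3.4. The step that made counts, its strand setting and the genome build are not given in the sources used here. The deposited values are whole-number counts per Ensembl gene without normalization. Symbols, lengths and gene coordinates came from GENCODE M21 (GRCm38), which named 55141 of 55401 genes and left 260 without a symbol, and promoters from RefSeq.

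Counts were analysed with edgeR 4.0.16 in R 4.3.3 (filterByExpr by group, TMM factors 0.953 to 1.05, 1 quasi-likelihood model with 4 group means over 12 tumors), DESeq2 1.42.0 being an alternative. Groups came from the sample titles. Each SE is the absolute log2 fold change divided by the square root of the F statistic of edgeR's test. The 95% intervals reach 1.96 SE either way, a normal approximation that is too narrow for so few tumors. An exact test of 3 against 3 tumors cannot go below 0.1. Labels do not say more of the replicates than that each is a tumor sample of a mouse, and the floor covers counting error only, since reads carried no molecular identifiers. On simulated counts for ASC against Control (20818 genes, 200 changed), edgeR found 62.0% of 4-fold and 47.8% of 2-fold changes, with 2 false calls. These rates are not split by expression level, so they need not hold for the members with low counts.

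The members and gene lists were chosen with earlier results of these data known. Named list genes are those called, otherwise the 2 of each list with the highest mean RPKM. Others (Krt10, Krt1, Krt6a, Dsp, Dsg2, Ehf, Perp, Ms4a1, Lor, Lgals7, Pbsn and the prostate genes, Col1a1) were chosen after their values were seen. Alternatives were DESeq2, DESeq2 size factors, other filters, no minimum fold, counts divided by 4, only the tumors compared, a replicate block and leaving out each tumor. The same alternatives for called list genes were added after seeing the data. Some genes are not reported here.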

Additional observations from a re-analysis of the deposited data

How the results depend on the processing

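Counts were low for Krt7, Krt5, Krt14, Epcam, Cdh1 and Krt18, which had at most 146 counts in every tumor, except Krt18 in Control replicate 1. For the members and list genes, 341 of 354 values under settings other than leaving out a tumor were counted as kept, as were 581 of 665 when a tumor was left out. For tested values, kept means the same direction and the same side of the threshold. For Krt8 and for ASC_As300 against Control, which had no test, it mostly means a move smaller than the SD within groups. Such values could change sign and still count as kept, as Krt8 in ASC_As300 against ASC did (0.0088 without ASC replicate 3). Replicate numbers did not pair the tumors (2 of 18 same-number pairs had a correlation of deviations over 0.1, in a range of -0.12 to 0.17), and a replicate block gave 148 calls in ASC and 195 in As300 against Control, with no change in any member's call, while Tubb3 in ASC_As300 against As300 (adjusted p 0.0745) and Stmn2 in As300 (0.0537) lost theirs. The number of genes called in either direction depended more on the setting, and the cause was not tested. DESeq2 called 450 genes (373 up, 77 down) in ASC, 816 (495 up, 321 down) in As300 and 390 in ASC_As300 against Control, 11 in ASC_As300 against ASC, 399 against As300 and 174 for the interaction, and 1 member, Krt19 in As300. In As300 against Control the 220 calls became 8 without a filter on low counts, 454 with at least 10 counts in every tumor, 460 with counts divided by 4, and 593 without a minimum fold. With only the tumors compared, 89 genes were called in ASC against Control and 1 in ASC_As300 against ASC. In As300, Syp, Syn2 and Stmn2 lost their calls without the filter (adjusted p 0.0512, 0.0626 and 0.0793), and Syn2 and Stmn2 with only the tumors compared (0.0528 and 0.0708).

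Leaving out each tumor in turn gave 105 to 355 calls in ASC, 0 to 399 in As300 (0 when any 1 Control tumor, or replicate 1 or 3 of ASC_As300, was left out) and 90 to 203 in ASC_As300 against Control, 0 to 1 in ASC_As300 against ASC, 95 to 277 against As300 and 0 to 1 for the interaction, with 0 calls among the members tested. Some values turned sign. Cdh1 was 0.0092 in As300 against Control with the stricter filter and 0.046 with counts divided by 4, and in ASC_As300 against ASC 0.00071 with counts divided by 4. There Vim was -0.0011 with DESeq2 size factors and -0.00064 with counts divided by 4. Over the fits without 1 tumor the log2 fold change ran, in ASC against Control, from -0.22 to 0.075 for Krt19, -0.80 to 0.14 for Krt14 and -0.27 to 0.31 for Cdh1. In As300 against Control it ran from -3.27 to 0.20 for Krt18 and -0.25 to 0.39 for Cdh1. In ASC_As300 against ASC it ran from -0.36 to 0.66 for Krt18, -1.89 to 1.46 for Krt14, -0.91 to 0.18 for Epcam, -0.81 to 0.25 for Cdh1, -0.22 to 0.0615 for Cdh2 and -0.087 to 0.17 for Vim. In ASC_As300 against As300 it ran from -1.57 to 1.80 for Krt14, -0.82 to 0.41 for Epcam, -0.89 to 0.17 for Cdh1 and -0.0068 to 0.15 for Vim. The interaction ran from -1.32 to 2.05 for Krt14, -0.81 to 0.27 for Cdh1 and -0.086 to 0.17 for Cdh2.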

Other observations

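Tubb3, which encodes a beta-tubulin used as a marker of neurons, is described here because it was called in both comparisons of tumors with ASC to those without, and it was chosen after its values were seen. It had 1344, 1354 and 1381 counts in Control and 3471, 2244 and 3996 in ASC, with 1734, 2488 and 1748 in As300 and 3666, 4265 and 4491 in ASC_As300. In CPM every tumor with ASC was above every tumor without ASC, whereas for Krt8 every tumor with ASC was below. Tubb3 rose in ASC against Control by 1.42 on the log2 scale (SE 0.19, edgeR adjusted p = 0.00245), a call kept in 12 of 12 fits that each left out a tumor, and in ASC_As300 against As300 by 0.95 (SE 0.19, adjusted p = 0.0331), kept in 6 of 12 and lost with a replicate block (adjusted p 0.0745). Adjusted p-values across the alternatives ran from 1.65e-11 to 0.0182 and from 0.000134 to 0.163. The list of 7 neuronal genes that holds Tubb3 did not follow it in both comparisons. In ASC against Control all 7, Tubb3 included, had a log2 fold change above 0 (median 0.89), and 5, Tubb3 included, were higher without overlap, beside 9.94% of all genes. In ASC_As300 against As300 only 1 of 7, Tubb3 itself, was above 0 (median -0.89), and the other 6 were lower without overlap, beside 8.37% of all genes.

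Syn2, a synapsin gene of the same list of neuronal genes, had 23, 61 and 65 counts in Control, 93, 125 and 105 in ASC, 205, 228 and 180 in As300 and 101, 124 and 70 in ASC_As300. It was called in As300 against Control, at a log2 fold change of 2.08 (SE 0.41, edgeR adjusted p = 0.043), and so was Stmn2, a stathmin gene, at 1.23 (SE 0.30, adjusted p = 0.0485). Each of these 2 calls was kept in 2 of 12 fits that left out a tumor and was lost without the filter on low counts and with only the tumors compared, that of Stmn2 also with a replicate block, with adjusted p-values from 5.51e-05 to 0.186 for Syn2 and from 0.00285 to 0.19 for Stmn2 across the alternatives.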
